A study of Mus musculus with 77 samples.

Results

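Semaphorins and their receptors, the plexins and neuropilins, were examined in mice that had gone through chronic social defeat stress (CSDS), both in AGO2-bound mRNA of the BNST, a limbic forebrain region (bed nucleus of the stria terminalis), and in blood RNA. The family was taken by gene symbol: 9 plexins, 2 neuropilins and 20 semaphorins, 31 genes in all. Each of the 31 was among the 16587 genes listed for the BNST pools, and 19 were among the 13084 genes listed for blood. The family was picked with the differences between defeated and control BNST pools in view, so those differences are described here with the study's criteria as a label and with no test drawn from them, and tests are reported only for the susceptible-resilient and the blood comparisons.

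The mice were males of the inbred strains C57BL/6Crl (B6) and DBA/2Crl (D2), aged 8 weeks at dissection. They were either defeated for 10 days by an aggressor or kept as same-strain controls, and defeated mice were sorted into resilient and susceptible by a later test of social interaction. Tissue was taken 6 to 8 days after the last defeat. For AGO2 RIP-seq, RNA bound to Argonaute 2 (AGO2), the protein that carries microRNAs to their target transcripts, was pulled down from pooled BNST punches of B6 mice, 3 BNST per pool, and its mRNA was sequenced. There were 5 control, 5 resilient and 4 susceptible pools. Blood RNA was sequenced from single mice, 5 per group, in B6 controls, B6 resilient, B6 susceptible, D2 controls and D2 susceptible mice. Because resilience was defined by behaviour after defeat, the resilient and susceptible groups differ by a selection and not by a treatment. No RNA from before the pull-down was analysed here, so a higher AGO2-bound level and a higher abundance of the transcript cannot be told apart.

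Plexins are transmembrane receptors whose intracellular part acts on small GTPases, and semaphorins are the secreted or membrane-bound ligands that steer axons, dendrites, vessels and immune cells through them. The secreted class 3 semaphorins mostly bind neuropilins, which hold the ligand while a class A plexin signals. Class 4 semaphorins mainly act on class B plexins, class 6 semaphorins on class A plexins, and Sema7a on Plxnc1 and integrins. In the adult brain the family takes part in synapse formation, myelination and glial responses.

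Levels are given as log2 CPM, that is the log2 of counts scaled to library size (CPM) with a small offset, and differences between groups are on the same log2 scale. Read totals were 3701281 to 10659882 in the 14 BNST pools and 9751603 to 15878495 in the 25 blood samples. A gene was called where limma gave an unadjusted p under 0.05 and the groups differed 1.2-fold or more, which are also the study's own criteria. The p-values measure the spread between these pools or samples. In bulk tissue, fewer cells of a type and less RNA per cell cannot be told apart.

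In the BNST pools Plxnb3, Plxna3 and Plxnb1 stood highest above control among the 31 genes, in resilient and in susceptible mice alike. Plxnb3 was 2.39-fold higher in resilient pools and 2.46-fold higher in susceptible pools. Plxna3 was 1.72-fold and 2.12-fold higher, and Plxnb1 1.62-fold and 1.65-fold higher. The neuropilins and most of the secreted class 3 semaphorins lay at or below their control level.

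In the resilient pools 8 of the 31 genes were called higher and 0 lower, beside 8.65% of all genes called higher and 9.04% called lower. In the susceptible pools 8 were called higher and 1 lower, beside 9.65% and 9.28% of all genes. The family was selected on these contrasts, so the counts are printed for reference only. The median difference over all 31 genes was 0.01 in resilient and -0.03 in susceptible pools, next to -0.02 and -0.01 over all genes, and 17 and 15 of the 31 lay above 0. The same control pools enter both comparisons.

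**Figure D1:**
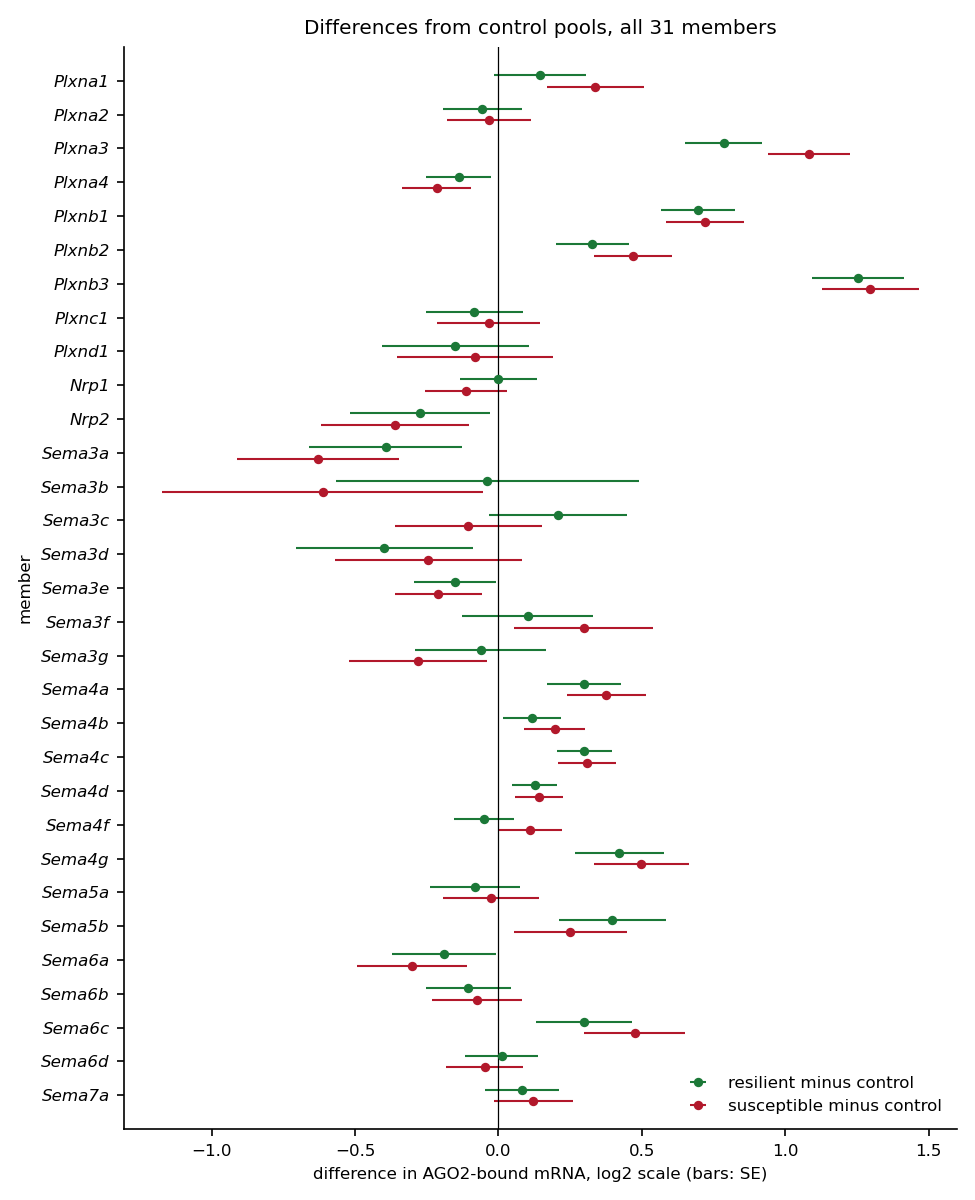
Difference of each of the 31 family genes from the control pools on the log2 scale (x axis), for resilient (green) and susceptible (red) pools, with bars of 1 SE. Plxnb3, Plxna3 and Plxnb1 lie farthest to the right in both, at 1.26, 0.79 and 0.70 in resilient and 1.30, 1.08 and 0.72 in susceptible pools, while Sema3a and Sema3b lie to the left in susceptible pools.

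Plxnb3, a class B plexin enriched in oligodendrocytes, was the gene farthest from control. Its level was 6.01, 6.33, 6.46, 6.64 and 6.30 log2 CPM in the 5 control pools. It was 7.72, 7.88, 7.24, 7.50 and 7.66 in the resilient pools and 7.33, 8.03, 7.25 and 7.96 in the susceptible pools. Every defeated pool therefore lay above every control pool, with no overlap. The difference was 1.26 ± 0.16 (SE) for resilient and 1.30 ± 0.17 for susceptible mice. These levels rested on 387 to 488 reads per control pool and 680 to 2096 per defeated pool, with 680 to 1625 in the resilient ones.

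Plxna3, a class A plexin that works with neuropilins as a receptor for class 3 semaphorins, lay next. Control pools held 5.40, 5.78, 5.55, 5.20 and 5.47 log2 CPM, resilient pools 6.28, 6.48, 6.14, 6.21 and 6.21, and susceptible pools 6.16, 6.82, 6.86 and 6.40. Here too the groups of defeated pools did not overlap the control pools, and the highest values were those of susceptible pools 2 and 3. The difference was 0.79 ± 0.14 for resilient and 1.08 ± 0.14 for susceptible mice. Plxna3 and Plxnb3 lie on chromosome X, 557 kb apart in the GRCm38 annotation.

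Plxnb1, the receptor of Sema4d, was at 6.03, 6.06, 6.06, 6.31 and 6.07 log2 CPM in control pools. It was at 6.91, 6.93, 6.78, 6.59 and 6.78 in resilient pools and at 6.65, 7.37, 6.56 and 6.72 in susceptible pools. Every defeated pool was above the control pools, although control pool 4 stood apart from the other controls and susceptible pool 2 from the other susceptible pools. The difference was 0.70 ± 0.13 and 0.72 ± 0.14. Without susceptible pool 2 the second of these was 0.54.

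Plxnb2, the class B plexin best known as a receptor of Sema4c, differed by less. Control pools held 6.51, 6.41, 6.46, 6.74 and 6.48 log2 CPM, resilient pools 6.99, 6.79, 7.19, 6.63 and 6.64, and susceptible pools 6.88, 7.31, 7.11 and 6.66. Resilient pools 4 and 5 and susceptible pool 4 lay within the control range. The difference was 0.33 ± 0.13 in resilient and 0.47 ± 0.14 in susceptible mice. The first was not past the criteria without resilient pool 3, at 0.24, or after the trend of each library on gene length and GC content was removed, at 0.26.

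The other plexins were not called. Of class A, Plxna1 differed from control by 0.15 in resilient and 0.34 in susceptible pools, Plxna2 by -0.06 and -0.03, and Plxna4 by -0.14 and -0.22. Plxna1 in susceptible pools was past the criteria without susceptible pool 4 (0.47), susceptible pool 1 (0.43) or control pool 3 (0.40), and Plxna4 without susceptible pool 2 (-0.29). Plxnc1, a receptor of Sema7a, differed by -0.08 and -0.03, and Plxnd1, a receptor of Sema3e with a role in vessel patterning, by -0.15 and -0.08. Of the 4 class A plexins 1, Plxna3, was thus called, while all 3 class B plexins were called higher in both comparisons. The class medians were 0.70 and 0.72 for the B plexins and 0.04 and 0.15 for the A plexins, in resilient and susceptible pools. Over all genes 8.65% and 9.65% were called higher and 9.04% and 9.28% lower in resilient and susceptible pools. Those shares also stand beside the counts of the semaphorin classes below. The class counts and medians describe contrasts the family was selected on.

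The neuropilins, which are co-receptors for class 3 semaphorins and for vascular endothelial growth factor, were not called. Nrp1 differed by 0.00 in resilient and -0.11 in susceptible pools, and Nrp2 by -0.27 and -0.36. The second value of Nrp2 was -0.62 without susceptible pool 3 and -0.53 without control pool 4, past the criteria in both cases.

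**Figure D2:**
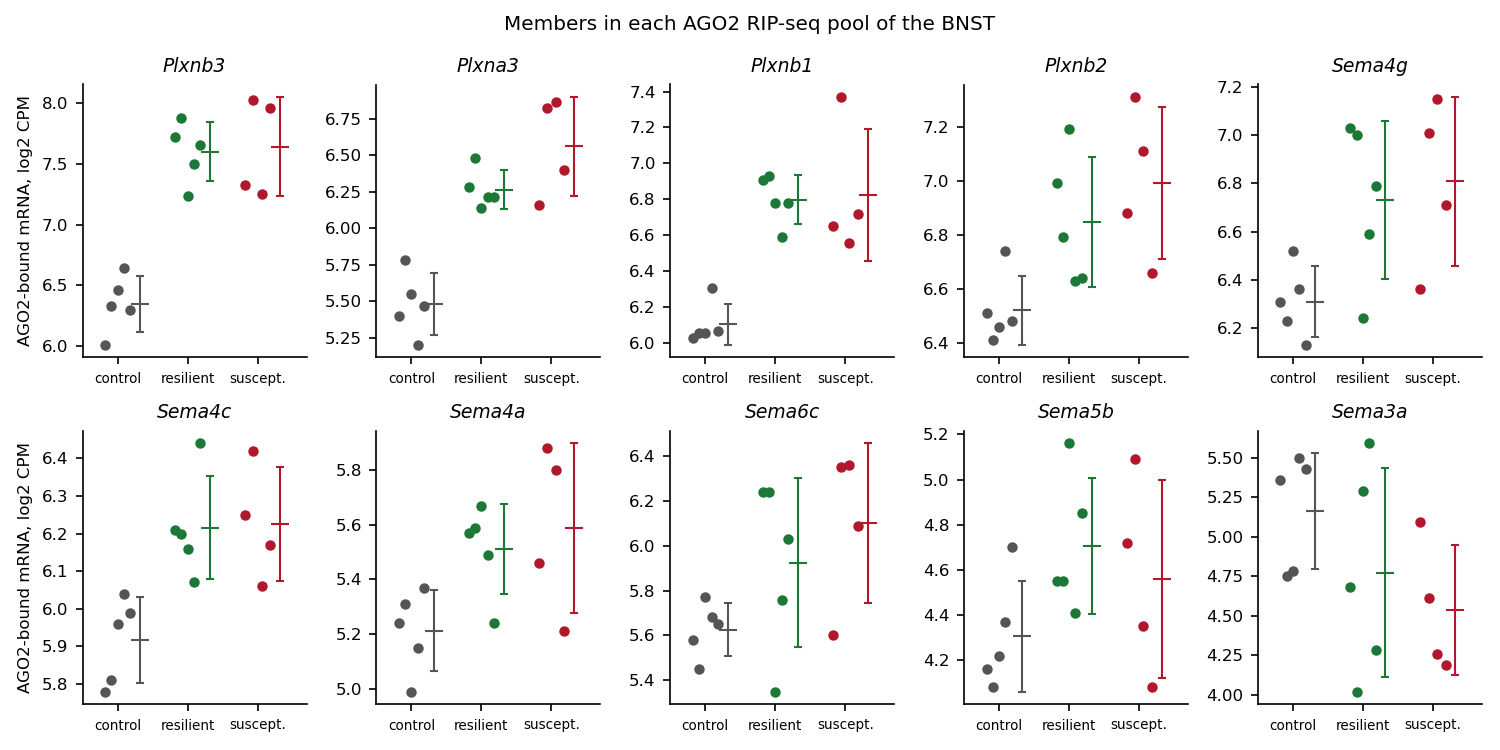
AGO2-bound mRNA level (y axis, log2 CPM) of the 10 family genes called in at least 1 comparison with control, in each control (grey), resilient (green) and susceptible (red) pool; the bar beside the points is the mean with its SD. Plxnb3, Plxna3, Plxnb1 and Sema4c have no defeated pool within the control range, whereas the other 6 overlap it.

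Of the 6 class 4 semaphorins, membrane-bound ligands of the B plexins, 3 were called higher in resilient and 3 in susceptible pools. Sema4c was at 5.78, 5.81, 5.96, 6.04 and 5.99 log2 CPM in control pools, at 6.21, 6.20, 6.16, 6.07 and 6.44 in resilient pools and at 6.25, 6.42, 6.06 and 6.17 in susceptible pools. The defeated pools lay above the control pools, in the closest case with 6.06 against 6.04, and the difference was 0.30 ± 0.10 and 0.31 ± 0.10. Its exons share 334 bases with a gene on the opposite strand, D430040D24Rik, which is listed in the same data. The values were not past the criteria without resilient pool 5 in the first comparison and without susceptible pool 2 in the second, at 0.24 each, nor in either after the length and GC trend was removed, at 0.25 and 0.23.

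Sema4g was at 6.31, 6.23, 6.52, 6.36 and 6.13 log2 CPM in control pools. It was at 7.03, 7.00, 6.24, 6.59 and 6.79 in resilient pools and at 6.36, 7.01, 7.15 and 6.71 in susceptible pools. Resilient pool 3 and susceptible pool 1 fell within the control range and the others lay above it. The difference was 0.42 ± 0.16 and 0.50 ± 0.17. Sema4a, best known from immune cells, was at 5.24, 5.31, 4.99, 5.15 and 5.37 in control pools, at 5.57, 5.59, 5.67, 5.49 and 5.24 in resilient pools and at 5.46, 5.88, 5.80 and 5.21 in susceptible pools. Its lowest resilient and lowest susceptible pool lay within the control range. The difference was 0.30 ± 0.13 and 0.38 ± 0.14, and without control pool 3 the first was 0.24, and without susceptible pool 2 the second was 0.28, neither past the criteria. The 2 calls were kept under 16 and 21 of 23 alternatives. Sema4b, Sema4d and Sema4f, the other class 4 members, differed by 0.12, 0.13 and -0.05 in resilient and by 0.20, 0.14 and 0.11 in susceptible pools.

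Classes 5 and 6 each held 1 called gene. Sema5b was at 4.16, 4.08, 4.22, 4.37 and 4.70 log2 CPM in control, at 4.55, 4.55, 5.16, 4.41 and 4.85 in resilient and at 4.72, 5.09, 4.35 and 4.08 in susceptible pools. Only resilient pools 3 and 5 and susceptible pools 1 and 2 exceeded all controls. Its difference was 0.40 ± 0.19 in resilient pools, and 0.25 ± 0.20 in susceptible pools, where it was not called. In resilient pools the call was kept under 11 of 23 alternatives. Without resilient pool 3 the difference there was 0.28 and not past the criteria. Sema6c was at 5.58, 5.45, 5.77, 5.68 and 5.65 in control, at 6.24, 6.24, 5.35, 5.76 and 6.03 in resilient and at 5.60, 6.35, 6.36 and 6.09 in susceptible pools. Resilient pool 3 was below every control and resilient pools 1, 2 and 5 above every control. The difference was 0.30 ± 0.17, not called, and 0.44 and past the criteria without resilient pool 3. In susceptible pools it was 0.48 ± 0.18, called, and 0.39 and not past the criteria without susceptible pool 2 or 3.

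The remaining members of these classes and class 7 were near control. Sema5a differed by -0.08 and -0.03, Sema6a by -0.19 and -0.30, Sema6b by -0.11 and -0.07, and Sema6d by 0.01 and -0.05. Sema7a, which is anchored to the membrane by a lipid, differed by 0.08 and 0.12. None of these 5 was called in either comparison.

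Among the 7 secreted class 3 semaphorins, 0 were called in resilient pools and 1, Sema3a, in susceptible pools. Sema3a repels growing axons and is also held in the matrix around some adult neurons. It was at 5.36, 4.75, 4.78, 5.50 and 5.43 log2 CPM in control pools, at 4.68, 4.02, 5.29, 5.59 and 4.28 in resilient pools and at 5.09, 4.61, 4.26 and 4.19 in susceptible pools. Susceptible pools 2, 3 and 4 were below every control, while the resilient pools lay on both sides of the control range. The difference was -0.39 ± 0.27 in resilient mice, not called, and -0.60 and past the criteria without resilient pool 4. It was -0.63 ± 0.28 in susceptible mice, called, and -0.51 and not past the criteria without susceptible pool 4. That call was kept under 14 of 23 alternatives. The other 6 ranged from -0.40 to 0.21 in resilient and from -0.61 to 0.30 in susceptible pools, and the class medians were -0.06 and -0.24.

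Plxna3, Plxnb1, Plxnb3 and Sema4c were the members without overlap with the control pools. Across all genes, 3.00% were without overlap on the higher side and 2.18% on the lower side in resilient pools, and 5.90% and 5.05% in susceptible pools, where the smaller group makes separation easier. No member was without overlap on the lower side. Just inside the call, Sema4a in resilient pools was at a fold of 1.23 and Sema4c in susceptible pools at 1.24, and just outside it, Sema6c in resilient pools differed by 0.30 and Sema5b in susceptible pools by 0.25 with wider errors.

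Between susceptible and resilient pools no member passed the test. This contrast is the difference between the susceptible-control and resilient-control contrasts of the same pools. It was therefore not independent of the choice of the family. Of the 31 genes 0 were called, next to 2.14% of all genes, and 20 of 31 differences lay above 0 with a median of 0.03. The largest difference relative to its error was that of Plxna3, 0.30 higher in susceptible pools with a 95% interval from -0.01 to 0.60 (limma, adjusted p = 0.99989). The exact two-sided permutation test over the 126 splits of the 9 pools gave p = 0.135 for it, the smallest of the 31. Susceptible pool 1, at 6.16, lay within the resilient range of 6.14 to 6.48, and without that pool the difference was 0.43 and called. It was also called without susceptible pool 4 or resilient pool 2, at 0.35 in either case, and without control pool 2 or 4, which enter only the estimate of the spread. For the B plexins the intervals ran from -0.32 to 0.40 for Plxnb3, from -0.26 to 0.31 for Plxnb1 and from -0.14 to 0.43 for Plxnb2. The half-widths of the 31 intervals ran from 0.18 to 1.18, with a median of 0.35, so smaller differences were not detectable with these pools. Over all genes limma gave 0 with an adjusted p under 0.05 and 401 with an unadjusted p under 0.05.

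Levels were compared between genes as log2 CPM per kilobase of exon. In control pools the 3 highest were semaphorins, Sema7a at 5.31 ± 0.25 (SD, n = 5), Sema6b at 4.99 ± 0.28 and Sema6d at 4.63 ± 0.18. The lowest were the secreted Sema3b at -1.58 and Sema3d at -0.97. Plxnb3 was rank 11 of 31 in control pools, at 3.65 ± 0.23, and rank 2 in resilient pools, at 4.90 ± 0.24, and in susceptible pools, at 4.94 ± 0.41 (n = 4). In both defeated groups it stood beside Sema6b, which it overlapped. Plxna3 was rank 21, 16 and 14 in control, resilient and susceptible pools, at 2.50, 3.29 and 3.58, and Plxnb1 rank 18, 14 and 15. The ranks are close-set: 27 of the 31 genes overlapped their next neighbour in control pools, and 29 in each defeated group.

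**Figure D3:**
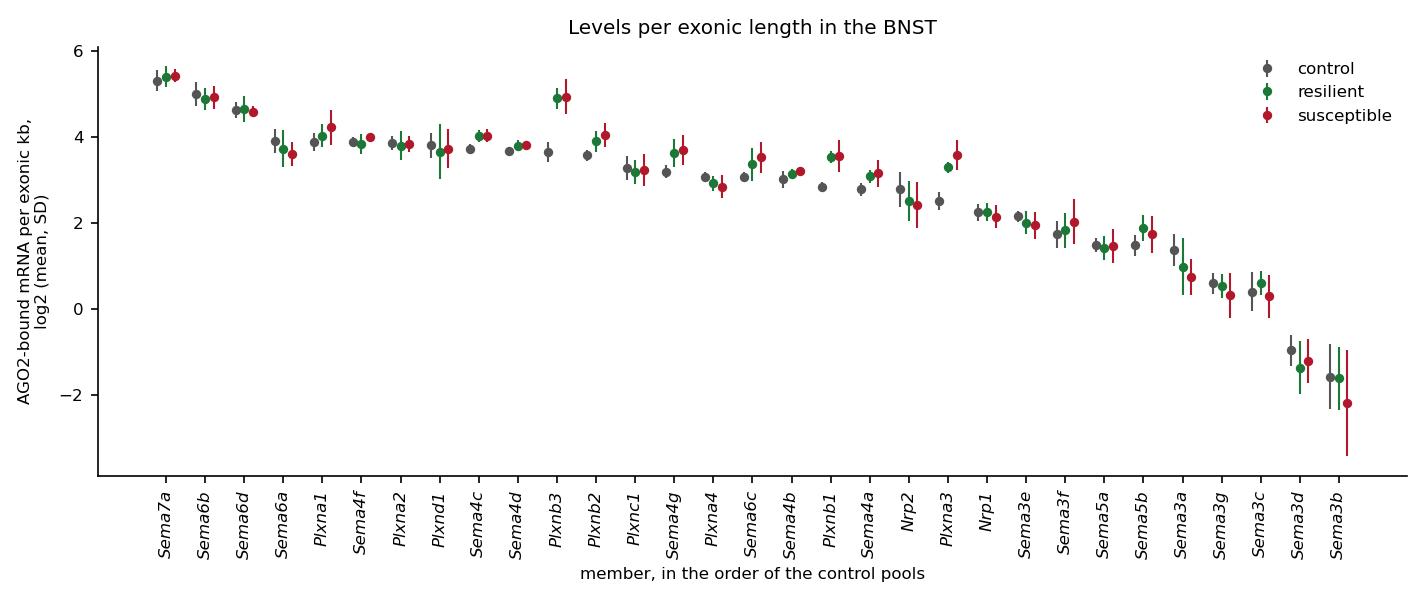
AGO2-bound mRNA per kilobase of exon (y axis, log2, mean with SD over pools) for the 31 family genes in the order of the control pools, for control (grey), resilient (green) and susceptible (red) pools. Plxnb3, rank 11 in control pools at 3.65, stands at 4.90 and 4.94 in the defeated groups, beside Sema6b.

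Markers of the cells in the punch were described in the same pools. The counts of called markers stand beside the shares over all genes. These were 8.65% called higher and 9.04% lower in resilient pools, and 9.65% and 9.28% in susceptible pools. Neuronal, oligodendrocyte, astrocyte, microglial and endothelial markers were present in all pools, and the 5 B cell and 4 NK cell markers were not listed. Of the T cell, neutrophil, monocyte and platelet lists 1 marker each was listed. The neutrophil marker Csf3r differed by 0.64 ± 0.22 and 0.67 ± 0.23 and Csf1r, a marker of monocytes and also of microglia, by 0.38 ± 0.13 and 0.35 ± 0.14 in resilient and susceptible pools, called in both. The T cell marker Lck and the platelet marker Itga2b differed by 0.97 ± 0.37 and 1.11 ± 0.43 in susceptible pools, called there, and by 0.27 ± 0.35 and 0.62 ± 0.40 in resilient pools, not called. In control, resilient and susceptible pools Lck ranged from 0.924 to 1.74, 1.16 to 2.75 and 1.93 to 4.77 CPM, and Itga2b from 1.25 to 4.11, 1.33 to 6.07 and 4.16 to 7.91. Csf3r ranged from 3.67 to 6.67, 6.20 to 9.04 and 5.91 to 10.7 CPM, and Csf1r from 26.7 to 38.1, 33.9 to 51.2 and 32.7 to 46.8. The other 4 markers of each list, among them Cd3e, S100a8, Ccr2 and Pf4, were not listed, and the part of these cells in the members' differences was not tested. Of 5 erythroid markers 3 were listed, with 1 called lower in resilient and 0 in susceptible pools. The summed level of 10 oligodendrocyte markers ran from 3840 to 5620 CPM in control, 2470 to 4680 in resilient and 2390 to 3880 in susceptible pools, with 3 of 10 called lower and 1 higher in resilient and 5 lower and 1 higher in susceptible pools. Mag, the 1 called higher, differed by 0.49 and 0.44. Over the 10 markers the differences ran from -0.51 to 0.49 in resilient pools, with a median of -0.12. In susceptible pools they ran from -1.08 to 0.44, with a median of -0.22. The part of oligodendrocyte content in the Plxnb3 values was not tested. The summed 5 markers of oligodendrocyte precursors were 265 to 290, 262 to 310 and 262 to 294 CPM, with 1 called higher in resilient pools and 0 in susceptible pools. Choroid plexus markers had medians of 128, 27.9 and 24.6 CPM over 5 genes, with 1 called lower in resilient and 4 in susceptible pools, and the 9 neuronal markers had medians of 3070, 2720 and 2460 CPM, with 1 and 5 called lower. The called astrocyte markers were 1 higher in resilient pools, and 2 higher and 2 lower of 7 in susceptible pools. Microglial markers were 1 higher and 1 lower, then 1 higher and 2 lower of 7, and endothelial markers 0, then 1 lower of 7. The part of these shifts in the plexin and semaphorin values was not tested.

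Base composition was taken from the longest annotated transcript of each gene. The 9 members called higher in at least 1 comparison had 55.0 to 61.5% GC, with a median of 57.3%. The other 22 had 39.2 to 63.5%, with a median of 51.3%. Members not called also lay in the range of those called, such as Plxna1 at 57.3%, Plxnd1 at 60.8%, Sema4f at 57.3% and Sema7a at 57.7%. Over the 16535 genes of the BNST data found in the annotation the median was 49.1%. Across the 31 genes the difference from control correlated with GC content with a Spearman coefficient of 0.47 in resilient and 0.54 in susceptible pools, whereas over 16535 genes the values were 0.02 and 0.07. These are descriptions across genes that share libraries, in the contrasts the family was picked on. After the trend of each library on length and GC was removed, 5 members were called in resilient pools in place of 8, and Plxnb3, Plxna3, Plxnb1 and Sema4g were among those past the criteria in both comparisons. The part of base composition in the differences was not tested beyond this.

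**Figure D4:**
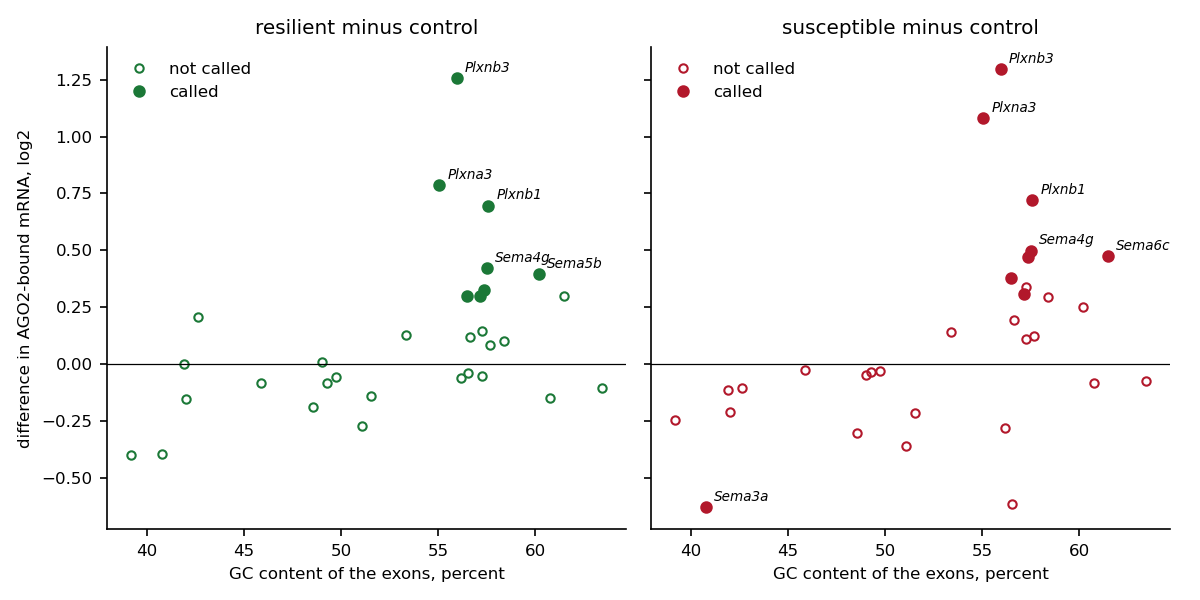
Difference from control (y axis, log2) against GC content of the exons of the longest annotated transcript (x axis, percent) for the 31 family genes. Resilient pools are on the left and susceptible pools on the right. Filled points are called genes, named where the absolute difference is above 0.35, except Plxnb2 and Sema4a. The genes called higher lie between 55.0 and 61.5% GC, where members not called lie too, and Sema3a, the gene called lower, lies to the left.

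Because the transcripts were recovered with AGO2, their 3′UTRs were searched for matches to the most abundant microRNA seeds of the same tissue, sequenced in matching pull-downs of 5 control, 5 resilient and 3 susceptible pools. A seed is bases 2 to 8 of the mature microRNA. The 10 most abundant seeds made up 57% of the microRNA CPM. Those with a match in a member called higher are printed from RefSeq (GRCm38.p6), 5′ to 3′, with the seed in capitals, since they are the sequences the matches refer to.
let-7e-5p: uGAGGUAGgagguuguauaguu
miR-22-3p: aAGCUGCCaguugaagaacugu
miR-125a-5p: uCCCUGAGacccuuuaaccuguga
miR-128-3p: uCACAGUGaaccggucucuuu
miR-132-3p: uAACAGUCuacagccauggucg

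Plxnb1, with an annotated 3′UTR of 1973 bases, held 4 matches, more than any other member called higher. They are printed from the GENCODE M21 transcript on the plus strand of GRCm38, with 8 bases on each side and the complement of the seed in capitals.
Plxnb1 site for miR-22-3p, chr9:109118665-109118687: atagaactGGCAGCTgctgggag
Plxnb1 site for miR-125a-5p, chr9:109118817-109118839: caataaggCTCAGGGagagttgg
Plxnb1 site for miR-22-3p, chr9:109119149-109119171: gtgcacttGGCAGCTggcggttg
Plxnb1 site for miR-128-3p, chr9:109119857-109119879: tcacagaaCACTGTGatagaaga
Both miR-22-3p sites share the same 7 letters, GGCAGCT, which 16.0% of 13866 annotated 3′UTRs hold.

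Of the class 4 and class 5 semaphorins called higher, Sema4c, Sema4g and Sema5b held the following matches, printed because these members were called higher. The transcripts are of the minus strand for Sema4c and of the plus strand for Sema4g and Sema5b.
Sema4c site for let-7e-5p, chr1:36549451-36549473: ggcaccagCTACCTCagggacat
Sema4c site for miR-125a-5p, chr1:36549447-36549469: ccagctacCTCAGGGacatggca
Sema4g site for let-7e-5p, chr19:45003055-45003077: tccctgtcCTACCTCaccagggc
Sema4g site for miR-132-3p, chr19:45003159-45003181: gtgaggatGACTGTTatttttgt
Sema5b site for miR-132-3p, chr16:35664030-35664052: cctgtggaGACTGTTgctgctca
The pair in Sema4c overlaps, so that the let-7 and miR-125 matches share bases.

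Of the 3 members farthest from control, Plxnb1 held the 4 matches above, whereas Plxnb3, with a 3′UTR of 264 bases, and Plxna3, with 1147, held 0 matches to the 10 seeds. Plxnb2, with 732 bases, Sema4a and Sema6c also held 0. By comparison Plxna4, a plexin that was not called and has a 3′UTR of 6221 bases, held 9 matches to 7 of the seeds. The median annotated 3′UTR was 1251 bases. Of the 31 members 10 held a let-7 match, compared with 10.8% of all 3′UTRs, 9 a miR-125 match (16.0%), 7 a miR-128 match (23.4%), 6 a miR-22 match (16.0%) and 5 a miR-132 match (13.2%). These seeds are the ones with a match in a member called higher. The rest of the 10 seeds matched 0 members called higher. Of the 31 members 10 held a miR-30 match (16.8%), 4 a miR-541 match (9.25%), 3 a miR-434 match (6.79%) and 0 a miR-92 match (7.94%). A miR-204 match was held by 6, with a share of all 3′UTRs close to that of miR-30. The matches are descriptions of the letters in the longest annotated 3′UTR and do not show binding.

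Partners of the receptors were described from 4 lists of related genes. Of 37 listed genes that carry plexin signals to the cytoskeleton, 5 were called higher and 4 lower in resilient and 6 higher and 7 lower in susceptible pools, with medians of -0.03 and -0.01. For this list and the next 3, the shares called over all genes were those given above, 8.65% higher and 9.04% lower in resilient and 9.65% and 9.28% in susceptible pools. The transcript of Fes, a tyrosine kinase that acts below plexin A receptors, differed by 0.87 ± 0.24 and 0.59 ± 0.25, while that of the small GTPase Rac1 differed by -0.34 ± 0.10 and -0.30 ± 0.11. The collapsin response mediators, cytoplasmic proteins that carry the Sema3a signal to microtubules, moved in opposite directions: Dpysl4 by 0.34 ± 0.10 and 0.48 ± 0.11, and Dpysl2 by -0.37 ± 0.11 and -0.65 ± 0.12. Cfl1, which severs actin filaments, differed by -0.45 ± 0.11 in susceptible pools.

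Of 15 co-receptors and other partners, 2 were called higher and 0 lower in resilient and 1 higher and 1 lower in susceptible pools. Cntn2 and L1cam, adhesion molecules that bind neuropilin complexes, differed by 0.45 ± 0.12 and 0.37 ± 0.11 in resilient pools. In susceptible pools Cntn2 differed by 0.49 ± 0.12 and Flt1, a receptor of vascular endothelial growth factor, by -0.40 ± 0.13. The other guidance families were called in both directions. Ephrins and Eph receptors, contact-dependent guidance cues, numbered 1 higher and 3 lower of 21 in resilient and 2 higher and 2 lower in susceptible pools, where Ephb2 differed by 0.64 ± 0.20, Efnb3 by -0.36 ± 0.11 and Efnb2 by -0.63 ± 0.24. In resilient pools Epha10 differed by 0.35 ± 0.15, Epha6 by -0.40 ± 0.16 and Efnb1 by -0.46 ± 0.19. Netrin, Slit and repulsive guidance molecules numbered 0 higher and 2 lower of 17, then 1 higher and 2 lower. Rgmb and Rgma differed by -0.49 ± 0.14 and -0.30 ± 0.12 in resilient and by -0.40 ± 0.15 and -0.38 ± 0.13 in susceptible pools, and Slit1, the ligand of Robo receptors, by 0.59 ± 0.26 in susceptible pools. Between susceptible and resilient pools 2 genes of the 4 lists were called, Dpysl2 at -0.28 ± 0.12 and Flt1 at -0.28 ± 0.13, next to the same 2.14% of all genes.

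In blood the family was smaller and its order different. The listed members were 7 plexins, both neuropilins and 10 semaphorins, and Plxnb1 and Plxnb3 were not listed. Per kilobase of exon the 3 highest in B6 controls were Sema4b at 2.71 ± 0.18 (SD, n = 5), Plxnc1 at 1.93 ± 0.16 and Sema4a at 1.40 ± 0.20, and in D2 controls Sema4b at 3.07 ± 0.45, Plxnc1 at 1.86 ± 0.09 and Sema4a at 1.65 ± 0.46. Sema5a was lowest in both strains, at -4.27 and -6.15. These levels describe mixed blood cells: B cell, T cell, NK cell, neutrophil, monocyte, platelet and erythroid markers were all listed.

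No member passed an adjusted p under 0.05 in any blood comparison by limma, and no member separated 2 blood groups without overlap. Over all genes, 0.0535 to 0.321% were without overlap in each direction of the comparisons within a strain. Between the controls of the strains, 6.44% were without overlap on the higher side in D2 and 5.59% on the lower side. Between B6 susceptible mice and controls 1 of 19 was called, next to 4.50% of all genes, and over all genes limma gave 0 with an adjusted p under 0.05 and 610 with an unadjusted p under 0.05. The called gene was Plxna4, a class A plexin. Its level was 4.37, 3.70, 5.05, 4.87 and 3.91 log2 CPM in B6 controls, 4.88, 4.74, 5.13, 4.00 and 4.64 in B6 resilient mice and 6.84, 4.76, 5.61, 4.19 and 5.10 in B6 susceptible mice. The susceptible mice ranged from within the controls to above them, with mouse 1 highest. The difference was 0.92 ± 0.40 (SE) by limma (adjusted p = 0.968). The exact two-sided permutation test over 252 splits gave p = 0.119. Without susceptible mouse 1 the difference was 0.53 and was not called, nor was it without susceptible mouse 3 (0.84) or control mouse 2 (0.75) or 5 (0.80).

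In D2 mice Plxna4 was at 5.12, 4.19, 5.91, 5.33 and 4.95 log2 CPM in controls and at 4.76, 4.98, 5.10, 4.75 and 3.43 in susceptible mice. The groups overlapped, and the difference was -0.50 ± 0.40 by limma (adjusted p = 0.99881). For D2 control 2 and D2 susceptible mouse 2 the label of the sample disagreed with its column name on the group, and the labels were followed. With the groups of the column names the difference was -0.81 and Plxna4 was called. Which grouping is right was not tested. The D2 results here, and the strain and interaction results that use D2 mice, are those of the labels unless stated. Across all members 0 of 19 were called between D2 groups, next to 1.57% of all genes, and over all genes 0 had an adjusted and 225 an unadjusted p under 0.05. The difference between the strains in the susceptible-control contrast was 1.42 ± 0.56 for Plxna4 (95% interval 0.26 to 2.58, limma, adjusted p = 0.918), the 1 called of 19 in this interaction, next to 5.37% of all genes. The call was kept under all 35 alternatives run. Over all genes the interaction gave 0 with an adjusted and 704 with an unadjusted p under 0.05.

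Markers of platelets, among other cells, moved with the same contrasts as Plxna4. Their sum over 5 genes had a median of 3590 CPM in B6 controls, 4410 in B6 resilient and 5710 in B6 susceptible mice, and of 6900 in D2 controls and 5660 in D2 susceptible mice. Of the 5, 4 were called higher in B6 susceptible mice and 0 in either direction in D2 mice, and 4 were called in the interaction. The shares over all genes were 4.50%, 1.57% and 5.37%. Median susceptible-control differences in B6 and D2 were 0.34 and -0.45 for neutrophil markers and 0.68 and -0.25 for endothelial markers. For B cell markers they were -0.21 and 0.26. The part of any of these cells in the Plxna4 values was not tested.

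**Figure D5:**
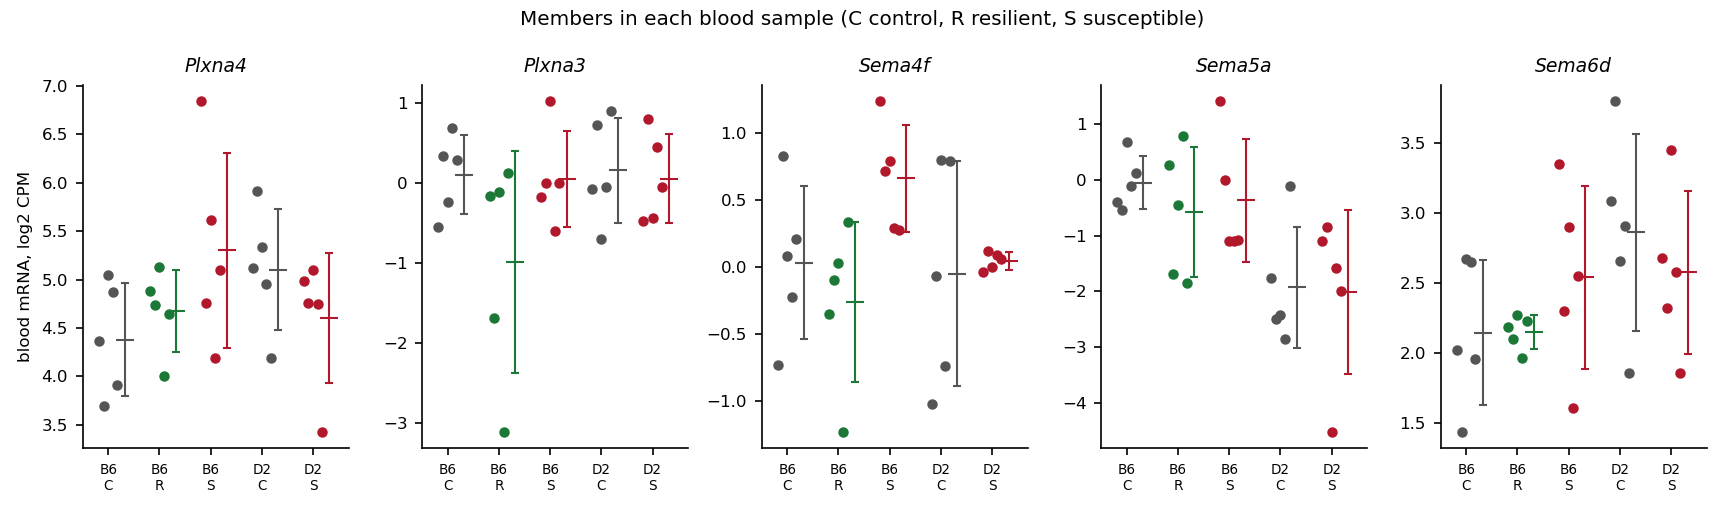
Blood mRNA level (y axis, log2 CPM) of the 5 family genes called in at least 1 blood comparison, in each of 5 mice per group of B6 control, resilient and susceptible and D2 control and susceptible mice; the bar beside the points is the mean with its SD. The groups overlap for all 5 genes, and B6 susceptible mouse 1 is the highest for Plxna4 at 6.84.

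Among B6 mice, resilient and control mice differed in 1 called member of 19, next to 2.11% of all genes. Plxna3 was at -0.55, 0.34, -0.23, 0.69 and 0.29 log2 CPM in controls and at -0.16, -1.68, -0.11, -3.11 and 0.13 in resilient mice. Resilient mice 2 and 4 were low, with 2 and 1 reads, and the other 3 were within the control range. The difference was -1.10 ± 0.50 by limma (adjusted p = 0.985), with an exact two-sided permutation p of 0.127. Without resilient mouse 4 it was -0.57 and was not called, and the call was also lost without resilient mouse 2 (-0.92) or control mouse 2 (-1.04), 4 (-0.95) or 5 (-1.05). Over all genes 0 had an adjusted and 290 an unadjusted p under 0.05.

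Susceptible and resilient B6 mice differed in 2 called members of 19, next to 2.03% of all genes. Sema4f, a class 4 semaphorin, was at -0.35, -0.10, 0.03, -1.23 and 0.34 log2 CPM in resilient and at 1.24, 0.72, 0.79, 0.29 and 0.28 in susceptible mice. Only resilient mouse 5 reached the susceptible range. The difference was 0.92 ± 0.36 by limma (adjusted p = 0.99979), with an exact two-sided permutation p of 0.0238 before correction for the 19 members. It rested on 5 to 29 reads per mouse, and was not called without resilient mouse 4, at 0.68, or susceptible mouse 1, at 0.78. Plxna3, at -0.17, 0.01, 1.03, -0.60 and 0.00 in susceptible mice, differed by 1.04 ± 0.50 (limma, adjusted p = 0.99979), with an exact permutation p of 0.214 and the call kept under 12 of 33 alternatives. Over all genes 0 had an adjusted and 283 an unadjusted p under 0.05.

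Between the control mice of the strains 2 of 19 members were called, next to 26.4% of all genes. Sema5a, a transmembrane semaphorin, was at -0.39, -0.54, 0.68, -0.11 and 0.12 log2 CPM in B6 and at -1.76, -0.11, -2.50, -2.42 and -2.85 in D2 controls. D2 control 2, whose column name puts it among the susceptible mice, lay in the B6 range and the other 4 below it. The difference was -1.88 ± 0.69 by limma (adjusted p = 0.0656), on 1 to 23 reads per mouse. An exact two-sided permutation test gave p = 0.0317 before correction for the 19 members. The difference was -2.33 without D2 control 2 and -2.08 with the groups of the column names. Sema6d was at 2.02, 1.44, 2.67, 2.65 and 1.96 in B6 and at 3.09, 1.86, 3.80, 2.66 and 2.91 in D2 controls. The strains overlapped, and the difference was 0.72 ± 0.33 (limma, adjusted p = 0.158), with an exact permutation p of 0.103. It was not called without B6 control 1, 2 or 5 or D2 control 1, 3 or 5, at 0.48 to 0.70. The 5 B cell markers were all called lower and 3 of the 5 platelet markers higher in D2 than in B6 controls, and their part in these values was not tested. For the other 17 members the intervals were wide: the half-widths over the 19 members ran from 0.20 to 1.41 with a median of 0.72, so smaller differences were not detectable for many of them. With the groups of the column names, 5 members were called between the strains and 1 between D2 susceptible and control mice.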

How the data were processed

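The deposited values were log2 CPM after voom, made by the authors from reads aligned to GRCm38 with STAR and counted over exons with HTSeq (microRNAs: miRDeep2 and Bowtie 1.1.1), keeping genes above a CPM minimum. The authors' later ComBat correction for cohort was not in these values and the cohort of each pool was not used here. Whole reads were recovered from the log2 values (0.5 reads added, tolerance 0.0001, 0 values not whole).

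The values of 14 BNST AGO2 pools (16587 genes) and 25 blood samples (13084 genes) were fitted separately, each with all its groups together and a mean-variance trend, using limma 3.58.1 (R 4.3.3), and p-values were adjusted over all genes by Benjamini-Hochberg. Groups came from the labels. A gene was called where its groups differed 1.2-fold or more at an unadjusted p under 0.05. Exact two-sided permutation tests enumerated every assignment of the samples to the groups compared. Members called in an AGO2 or blood comparison were given by sample. Where listed partners were called, the 3 with the smallest p in each AGO2 comparison were named. Members, gene lists (plexin signalling, co-receptors, Eph and ephrin, netrin and Slit, cell type markers) and tests were chosen with earlier results of these data known. Exon length and GC content came from GENCODE M21, which held 16535 and 13054 of the genes. GC content was that of the longest annotated transcript. Seeds were matched to the longest annotated 3′UTR, on the transcript strand, with no filter on overlap. MicroRNA names matched RefSeq for 686 of 788. The test was checked on simulated data. Figures were drawn with matplotlib 3.10.9.

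Alternatives were a fit without the trend, a mean of at least 2 log2 CPM, quantile normalization, 2 reads added, voom weights, sample weights, removal of the length and GC trend (loess, span 0.5), a replicate block, the title prefix of the blood samples as a term, groups from column names, and each sample left out. Scaling to each sample's own read total was added after seeing the data.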

Additional observations from a re-analysis of the deposited data

Results flagged for a closer look

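In the control pools of the BNST, Plxnb1 was at 6.31 log2 CPM in pool 4 and between 6.03 and 6.07 in the other 4, a gap of 0.858 of the whole range of the group. In blood, Plxna4 was at 3.43 log2 CPM in D2 susceptible mouse 5 and between 4.75 and 5.10 in the other 4, a gap of 0.791 of the range. Both were noted because 1 sample stood far from the rest by Dixon's criterion. Of 55 groups of values tested in this way 2 met it, and chance gives about 1 in 20.

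The susceptible-control difference of Plxna4 in blood was 0.92 in B6 and -0.50 in D2 mice, and the difference between the strains was 1.42 ± 0.56 (limma, adjusted p = 0.918). It was noted because the contrast differed between the strains by the test of the interaction itself, before adjustment over all genes.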

How the results depend on the processing

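Of the 25 member differences followed under every alternative, those called and Plxna3 between the defeated groups, none changed sign. With length and GC trend removed, 5 members were called between resilient and control pools (8 reported), and 7 between susceptible and control pools (9 reported), without Sema4c, Sema6c and Sema3a and with Plxna4 at -0.27. Leaving out 1 pool gave 6 to 10 there and the remaining alternatives 8 to 10, with Plxna1 added under sample weights (0.37) and own read totals (0.41). Between susceptible and resilient pools (0 reported), 1, Plxna3, was called under quantile normalization, voom weights, sample weights, own read totals and the replicate block. In blood, B6 resilient against control (1 reported) gave 0 under the minimum of 2 log2 CPM, quantile normalization, 2 reads added, voom weights and the title prefix. B6 susceptible against control (1 reported) gave 0 under sample weights. B6 susceptible against resilient (2 reported) gave 0 under the minimum and own totals, and 1 under quantile normalization, 2 reads added, voom weights, sample weights, length and GC trend removed and the title prefix. D2 susceptible against control (0 reported) gave 1 under sample weights and column-name groups. The control strains (2 reported) gave 1 under the minimum, 5 under sample weights, 4 under own totals and 5 under column-name groups. The interaction (1 reported) gave 2 under sample weights and column-name groups. The cause of these changes was not tested. The title prefix could not be fitted between strains, each prefix belonging to 1 strain.

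Leaving out each sample in turn, the called members numbered 6 to 9 for resilient and 6 to 10 for susceptible against control pools, 0 to 1 between the defeated groups, 0 to 2, 0 to 3 and 0 to 3 for the B6 blood comparisons in the order above, 0 to 1 in D2, 1 to 4 between strains and 1 to 2 for the interaction. The replicate block on pool numbers gave 7, 9 and 1 called members in the 3 AGO2 comparisons (8, 9 and 0 without it). Pools of the same number in different groups deviated from their group means with correlations of -0.17 to 0.14, median -0.05, over 13 pairs. Pools of other numbers gave -0.26 to 0.22, median 0.03, over 52 pairs. Whether pools of the same number shared a cohort or batch was not tested. Blood members with few reads were limited by depth. Column-name groups raised the genes called in D2 from 206 to 890 and in the interaction from 703 to 1321. The paper's own count of genes differing between D2 groups in blood lies closer to the column-name count than to the label count. The D2 results by the labels are therefore to be read with this in mind.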
